A study of Mus musculus with 7 samples.

Results

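Mural cells, the contractile cells that wrap capillaries and larger vessels, were described in mouse brain tumours of the NSCG line. A barcode counted as mural when the pericyte genes Rgs5, Kcnj8, Abcc9, Notch3 and Vtn together had at least 5 unique molecular identifiers (UMIs) from at least 3 of these 5 genes. It also had at most 1 UMI of the endothelial genes Cldn5, Pecam1 and Cdh5, and none of the leukocyte gene Ptprc. Of 51795 barcodes with at least 1000 UMIs, 500 genes and at most 15% mitochondrial UMIs, 142 met this rule. Their levels of the rule genes are thus a description of how they were chosen and support nothing by themselves.

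The tumours grew from NSCG-mCherry cells, labelled EGFRvIII+ and Arf/Ink4a-/-, in wild-type C57BL/6 mice aged 7 to 10 weeks. UT mice were untreated. IgG mice got 10 mg/kg of an IgG2b isotype control, and BP mice got 5 mg/kg B20, an antibody against VEGF, with 10 mg/kg anti-PD-L1. Both were injected into the peritoneum every 3 days from day 6 to 7 after implantation. BPI mice got the BP antibodies and 10 mg/kg IPI-145, an inhibitor of phosphoinositide 3-kinases, by mouth every day. CD40 mice got 2 doses of 100 µg anti-CD40 agonist at an interval of 5 days, and the labels do not say whether a dendritic cell vaccine was added. Tumours were taken at about day 14, with those of at least 2 mice pooled in each group, so each library is 1 replicate and the spread between mice is not measured. There were 2 IgG, 2 BP, 1 UT, 1 BPI and 1 CD40 libraries, made from dissociated whole tumours with a 10x Genomics 3′ kit.

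Pericytes sit in the basement membrane that they share with endothelial cells, which draw them in through PDGF signalling to the receptor Pdgfrb. Vascular smooth muscle cells lie around arterioles, express the contractile proteins Acta2, Tagln and Myh11, and share many genes with pericytes. In the brain both take part in the control of blood flow and of the blood-brain barrier.

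The libraries held 68997476 to 186793886 UMIs in total, with 5626 to 10539 kept barcodes each. UT lists fewer barcodes than the others (713553 against 1487060 or more) and draws on another barcode list. Pairs of libraries shared 0 to 26 kept barcode sequences, at most 0.384% of the smaller library, and 2 of these shared sequences were mural in a library. Free RNA, estimated from leukocyte genes without 1 UT and 2 CD40 members that had 20 or more leukocyte UMIs, was 0% to 4.01% of mural UMIs by library, and with those members the same estimate was 5.80% in UT and 15.6% in CD40. Both ends of this range rest on too few counts to measure free RNA. BP replicate 2 (0%) had 0 leukocyte UMIs, and IgG replicate 1 (4.01%) and BPI (2.62%) had 1 each. Intervals in brackets are 95% intervals, by the Clopper-Pearson method where a share of barcodes is given and by the exact Poisson method where a level is given, and they cover counting error only. Levels are given as CPM, the UMIs of a gene summed over the mural barcodes of a library and scaled to a total of 1000000. They come from the 3′ end of transcripts, so levels of different genes were not compared.

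Most mural barcodes came from the CD40 library and from 1 of the IgG libraries. CD40 had 66 mural barcodes among 8323 kept, 0.793% (0.614% to 1.01%). IgG replicate 2 had 41 of 8006, 0.512% (0.368% to 0.694%), and IgG replicate 1 had 3 of 6257, 0.0479% (0.00989% to 0.140%). BP replicate 1 had 17 of 10539, 0.161% (0.0940% to 0.258%), and BP replicate 2 had 3 of 6009, 0.0499% (0.0103% to 0.146%). UT had 9 of 5626, 0.160% (0.0732% to 0.303%), and BPI had 3 of 7035, 0.0426% (0.00880% to 0.125%). The IgG libraries lay on both sides of the BP libraries and their intervals did not overlap each other. IgG replicate 1, BP replicate 2 and BPI also had less of the fibroblast genes in their other barcodes, 135, 117 and 107 CPM. UT, IgG replicate 2, BP replicate 1 and CD40 had 934, 524, 448 and 529 CPM. Astrocyte markers were at 61.5, 52.7 and 50.5 CPM against 870, 344, 594 and 369. This split of the libraries cuts across treatment, and its part in the mural shares was not tested.

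**Figure D1:**
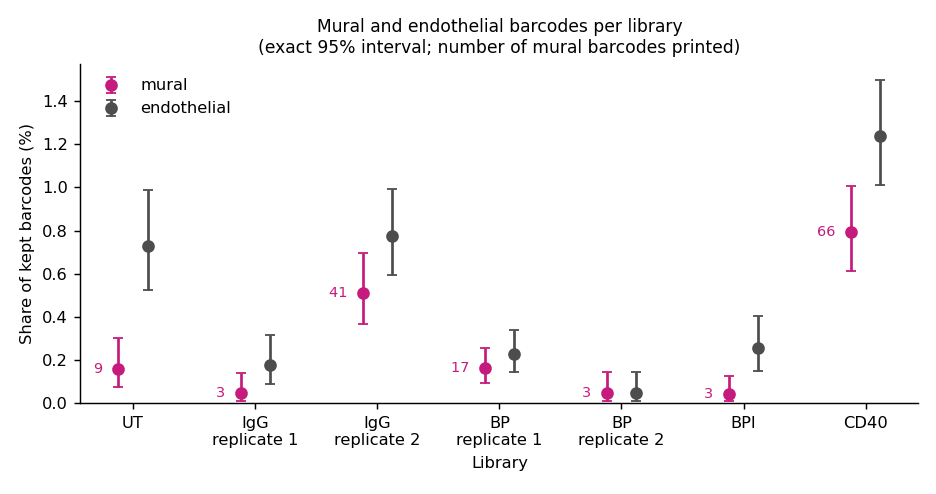
Share of kept barcodes that were mural or endothelial in each of the 7 libraries, in percent, with exact 95% intervals and the number of mural barcodes printed. CD40 and IgG replicate 2 have the highest mural shares, and IgG replicate 1, BP replicate 2 and BPI have 3 mural barcodes each.

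Mural shares averaged 0.280% ± 0.328 in IgG and 0.106% ± 0.0788 in BP (SD, n = 2 each), a difference of -0.174 percentage points with p = 1 in a two-sided exact permutation test. With 2 libraries against 2 this test cannot give a p below 0.333. Without IgG replicate 2 the difference turned to 0.0577 percentage points. Endothelial barcodes, which had at least 5 UMIs from at least 2 of Cldn5, Pecam1 and Cdh5, at most 1 UMI of the mural rule genes and none of Ptprc, numbered 262. There were 0.641 mural barcodes per endothelial barcode in CD40, 0.661 in IgG replicate 2, 0.273 in IgG replicate 1, 0.708 in BP replicate 1, 1 in BP replicate 2, 0.220 in UT and 0.167 in BPI. On the log2 scale this ratio was -1.24 ± 0.90 in IgG and -0.25 ± 0.35 in BP (SD, n = 2 each), a difference of 0.99 with the smallest p the exact permutation test allows, 0.333. Thinned to 2000 UMIs a barcode, the difference was 0.38 (exact p = 1), and with at least 2000 UMIs and 1000 genes it was 0.50 (exact p = 0.667). The order of CD40 and IgG replicate 2 depended on the rule: with at least 8 UMIs from at least 4 rule genes, mural shares were 0.348% (0.233% to 0.50%) in CD40 and 0.387% (0.263% to 0.549%) in IgG replicate 2, with 0.282 and 0.5 mural barcodes per endothelial barcode.

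The limits of the rule ran through a populated range. Of the members, 10 had exactly 5 rule UMIs, and 10 barcodes that met the other conditions had 4. Exactly 3 rule genes were seen in 53 members, while 34 barcodes had enough UMIs from 2 genes. The endothelial limit left out 129 barcodes, 73 of them in CD40 and 36 in IgG replicate 2, and the Ptprc limit left out 28. With at least 8 UMIs from at least 4 rule genes, 29 of the 66 CD40 members and 31 of the 41 in IgG replicate 2 stayed in. The median member had 15 rule UMIs in CD40 and 94 in IgG replicate 2, and the median depth was 4650 and 7432 UMIs.

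Of 25 pericyte genes outside the rule, 12 were seen in at least 50% of the members. Pdgfrb, the receptor for PDGF-B, had a UMI in 119 of 142 mural barcodes (83.8%), and Higd1b, a mitochondrial protein gene used as a brain pericyte marker, in 103 (72.5%). After thinning every barcode to 1000 UMIs, Pdgfrb was seen in 47.2% of mural, 0% of endothelial and 0.2% of leukocyte barcodes (Ptprc seen and no rule gene), whose median depths before thinning were 7134.5, 11537.5 and 6483 UMIs. The endothelial barcodes were chosen with at most 1 rule-gene UMI and the leukocyte barcodes with none, which can lower their values. The proteoglycan gene Cspg4, which encodes NG2, was at 173 CPM (154 to 194) in mural and 0.392 CPM in endothelial barcodes. Anpep, which encodes the peptidase CD13, was sparse, with a UMI in 27 members (19.0%).

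The rule genes, whose levels the choice of members sets in part, varied between libraries. Rgs5, an inhibitor of G protein signalling, stood at 6536 CPM in IgG replicate 2, 6461 in BP replicate 2, 3517 in CD40, 3306 in BP replicate 1, 2641 in IgG replicate 1, 1638 in UT and 1470.2 in BPI. The 95% intervals of IgG replicate 2 (6306 to 6773) and BP replicate 2 (5027 to 8177) overlapped, as did those of UT (1435 to 1863) and BPI (992 to 2099). In BP replicate 1 a single barcode held 490 of its 1096 Rgs5 UMIs. Of the 142226 mural UMIs in UT, 1 member held 53031 and another 48893, so summed UT levels rest largely on them. They had 56 and 18 Rgs5 UMIs, and also 139 and 101 UMIs of cell cycle genes and 31 and 35 of tumour-line markers.

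The potassium channel genes followed another order. Abcc9, the regulatory subunit of the ATP-sensitive channel, was at 936 CPM in BP replicate 2, 676 in CD40, 532 in IgG replicate 2, 380.1 in BP replicate 1, 379.7 in UT, 296 in IgG replicate 1 and 196 in BPI. Kcnj8, its pore subunit, ranged from 90.5 CPM in BP replicate 1 to 655 in BP replicate 2, where it rested on 7 UMIs. All 11 transport and potassium channel genes together had 54 UMIs in BP replicate 2, 50 in IgG replicate 1 and 23 in BPI. The places of these libraries in the order thus rest on few UMIs. Notch3, the Notch receptor of mural cells, ranged from 98.0 CPM in BPI to 513 in IgG replicate 2. Vtn, which encodes the matrix and plasma protein vitronectin, was at 1708 CPM (1645 to 1772) over all mural barcodes.

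Contractile genes split the members. Acta2, smooth muscle alpha-actin, had a UMI in 66 of 142 mural barcodes (46.5%), Tagln, which encodes the actin-binding protein transgelin, in 52 (36.6%), and Myh11, the smooth muscle myosin heavy chain, in 44. After thinning, Acta2 was seen in 25.4% of mural and in 0% of endothelial and leukocyte barcodes, which were chosen with few or no rule-gene UMIs. In 64 members none of these 3 genes had a UMI, and 11 members held at least 10000 CPM of them, 6 in CD40 and 5 in IgG replicate 2. The highest value in 1 barcode was 43255 CPM, in IgG replicate 2.

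**Figure D2:**
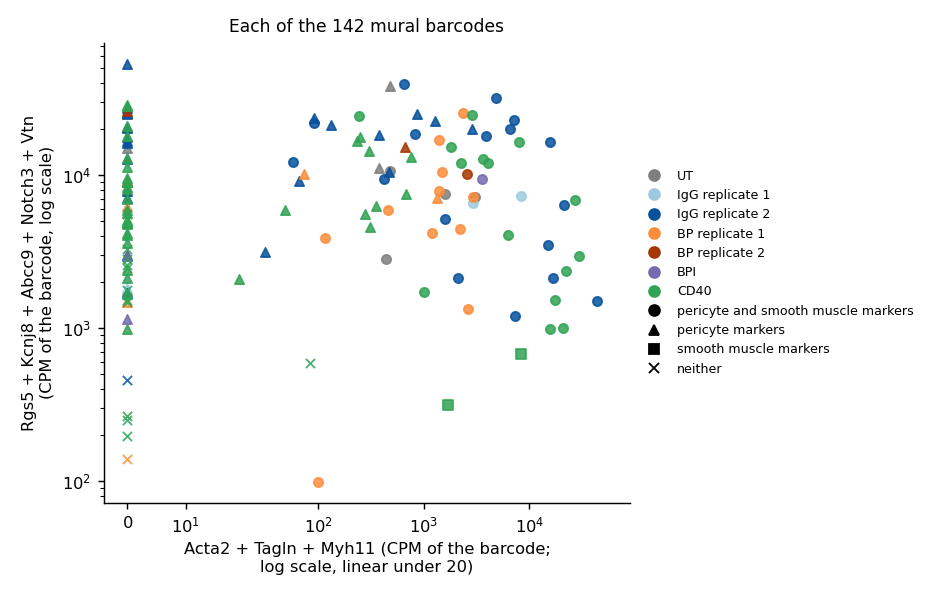
Each point is 1 of the 142 mural barcodes, coloured by library, with the sum of the 5 rule genes against the sum of Acta2, Tagln and Myh11, both in CPM of that barcode on log scales. In 64 barcodes the contractile sum is 0, and the 11 barcodes at 10000 or more on the horizontal axis come from CD40 and IgG replicate 2.

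Members were sorted by markers that the rule did not use: at least 2 of 7 pericyte markers (Pdgfrb, Cspg4, Anpep, Higd1b, Ndufa4l2, Atp13a5, Cox4i2) and at least 3 of 9 smooth muscle markers (Acta2, Tagln, Myh11, Cnn1, Lmod1, Myocd, Des, Pln, Mustn1). These limits were set after the values were seen. Pericyte markers alone were met by 75 members (52.8%), both sets by 51 (35.9%), smooth muscle markers alone by 2, and neither by 14 (9.86%). The barcodes with both sets had 4528 CPM of Acta2, Tagln and Myh11 together, against 136 CPM in those with pericyte markers alone, a difference that the sorting itself sets because these 3 genes are among its markers. Of the 14 members with neither set, 12 were in CD40, 1 in IgG replicate 2 and 1 in BP replicate 1, and their median was 6.5 rule UMIs. The sorting depended on depth: thinned to 1000 UMIs, 76 members met the pericyte set alone, 9 met both, 13 the smooth muscle set alone and 44 neither. Thinned members with neither set made up 36.4% of CD40 (24.9% to 49.1%) and 9.76% of IgG replicate 2 (2.72% to 23.1%).

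Levels of the contractile genes differed between libraries, and their order depended on the members kept. Acta2 was at 2147 CPM in IgG replicate 1 (87 UMIs), 1841 in IgG replicate 2, 1302 in CD40, 637 in BPI, 413 in BP replicate 1 and 267 in UT. BP replicate 2 had 1405 CPM of Acta2 from 15 UMIs of 1 barcode. Tagln was at 1208 CPM in IgG replicate 2, 889 in IgG replicate 1, 738 in CD40, 468 in BP replicate 2, 296 in BP replicate 1, 176 in UT and 147 in BPI. Myh11 was at 562 CPM in IgG replicate 2, 352 in CD40, 112 in BP replicate 1, 93.6 in BP replicate 2, 77.3 in UT and 74.0 in IgG replicate 1, and BPI had no Myh11 UMI. Of the Myh11 UMIs, 215 of 228 in CD40 and 208 of 261 in IgG replicate 2 lay in members outside the stricter rule of 8 UMIs from 4 rule genes. Within that rule Myh11 was at 165 CPM (116 to 227) in BP replicate 1, 145 (109 to 190) in IgG replicate 2, 71.7 (34.4 to 132) in UT and 35.2 (18.8 to 60.3) in CD40. Within it Acta2 was at 956 CPM in IgG replicate 2, 876 in CD40 and 574 in BP replicate 1, and Tagln was at 688, 244 and 418 CPM. The values of BP replicate 2, BPI and IgG replicate 1 rest on 3 barcodes each. In UT the members of 53031 and 48893 UMIs held most of the 142226 UMIs but 10 and 0 of the 38 Acta2 UMIs, which lowers its summed level.

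Myl9, a regulatory light chain of smooth muscle myosin, was seen in 92 members (64.8%). It was at 938 CPM in IgG replicate 1, 898 in IgG replicate 2, 750.0 in CD40, 655 in BP replicate 2, 323 in UT, 245 in BPI and 127 in BP replicate 1. Its promoter is shown because it holds a CArG box, the element that serum response factor binds in many contractile genes. The box, in capitals, lies 161 to 152 bases before the RefSeq start site at 156775464. The stretch covers chr2:156775214-156775413 on the + strand of GRCm38.p6, from RefSeq, and the GENCODE gene Myl9, which starts upstream of the RefSeq start, covers 156775420 to 156781658.
Myl9: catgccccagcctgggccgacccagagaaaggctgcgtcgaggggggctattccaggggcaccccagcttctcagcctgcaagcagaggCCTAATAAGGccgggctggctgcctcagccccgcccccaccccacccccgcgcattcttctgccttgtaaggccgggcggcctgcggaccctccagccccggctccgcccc
Between 250 and 51 bases before the start, the CArG box occurred on either strand in 1 of 19 windows of 17 matched smooth muscle genes (5.26%) and in 380 of 32851 windows of all genes (1.16%). A match is a description of the letters only, and boxes outside this window were not searched.

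Basement membrane genes were seen in mural barcodes of each library and in endothelial barcodes. Of the 14 genes of the list, 4 were at 0 in BPI and 2 each in IgG replicate 1 and BP replicate 2. In BPI 1 member held 56 of the 60 UMIs of the list, which summed to 2940 CPM with it and 251 without. Col4a1, a chain of type IV collagen, had a UMI in 128 members (90.1%) and was at 1710 CPM over all of them, against 1865 CPM in endothelial and 78.0 CPM in the other barcodes. Per library Col4a1 ranged from 809 CPM in UT to 2435 in BP replicate 2. Sparc, a collagen-binding matricellular protein, was at 1761 CPM in mural and 3730 in endothelial barcodes. Mgp, which encodes matrix Gla protein, an inhibitor of calcification, was at 3412 CPM in mural and 74.2 CPM in endothelial barcodes, and ranged from 1568 CPM in BPI to 4788 in IgG replicate 1. The VEGF receptor gene Flt1 was at 419 CPM in mural and 1372 in endothelial barcodes, and a single barcode held 127 of its 694 mural UMIs.

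Outside the rule genes, the largest ratios to the other kept barcodes belonged to Ccl11, Serpina1b, Nts, Col3a1, Gucy1a1, Higd1b, Ednra, Cyp7b1, Trpc6, Tagln, Postn, Rgs4, Ano1, Slc38a11 and Acta2. The ratios ran from 571-fold for Ccl11 down to 253-fold for Acta2. These 15 genes had at least 100 CPM in mural barcodes and a UMI in both libraries with 20 or more members. Among them are genes of vascular tone: Gucy1a1, a subunit of the nitric oxide receptor, Ednra, the endothelin receptor, Trpc6, a cation channel, and Ano1, a chloride channel. Gucy1a1 was at 375 CPM in IgG replicate 2 and 276 in CD40, and Ednra was at 265 and 346 CPM. Not all 15 were spread over the libraries: BP replicate 1 held 99.5% of the mural UMIs of Nts, 89.6% of Ccl11, 82.3% of Postn, 81.5% of Cyp7b1 and 61.7% of Col3a1, and 32.0% or less of the other 10.

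BP replicate 1 had high levels of genes for secreted proteins that were near 0 in the libraries with more mural barcodes. Ccl11, the eosinophil chemokine eotaxin, reached 3490.1 CPM (3292 to 3697) in BP replicate 1, with UMIs in 16 of its 17 members, and 893 CPM in UT, in 4 of 9 members. BPI had 4 Ccl11 UMIs (196 CPM), CD40 had 2 in 66 members (3.09 CPM), IgG replicate 2 had 1 in 41 members (2.15 CPM), and IgG replicate 1 and BP replicate 2 had none, which allows up to 91.0 and 345 CPM. Nts, which encodes the peptide neurotensin, was at 2235 CPM (2077 to 2402) in 13 of 17 members of BP replicate 1. Nts had 3 UMIs in IgG replicate 2, 1 in CD40 and none in the remaining 4 libraries. Other kept barcodes of BP replicate 1 held 5.19 CPM of Ccl11 and 4.11 CPM of Nts.

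Matrix genes went the same way. Postn, the matricellular protein periostin, was at 1418 CPM (1292 to 1552) in BP replicate 1, 176 in UT, 98.8 in CD40, 49.4 in IgG replicate 1 and 21.5 in IgG replicate 2, with no UMI in BP replicate 2 and BPI. Col6a1, a chain of type VI collagen, was at 525 CPM (450 to 609) in BP replicate 1 against 27.8 in CD40 and 2.15 in IgG replicate 2, and had no UMI in the remaining 4 libraries. Col3a1, the chain of type III collagen, was at 1701 CPM in BP replicate 1, 843 in BP replicate 2 (9 UMIs), 330 in UT, 302 in CD40, 296 in IgG replicate 1, 183 in IgG replicate 2 and 49.0 in BPI. The 17 fibrillar matrix and matricellular genes summed to 11333 CPM in BP replicate 1 and to 1176 to 2716 CPM in the other 6 libraries. A single barcode held 1139 of the 3757 UMIs behind that sum, and 8647 CPM remained without it.

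Fibroblast genes were also present in BP replicate 1. Dcn, which encodes the proteoglycan decorin, was at 667 CPM (582 to 761) there in 7 of 17 members, and at 0 to 49.2 CPM in the other libraries. The 13 fibroblast genes summed to 1593 CPM in BP replicate 1, with 4 genes at 0, and to 49.0 to 921 CPM elsewhere. In BP replicate 1 a single member held 158 of the 528 fibroblast UMIs, and 1173 CPM remained without it. The 921 CPM of UT stood beside 934 CPM in its other barcodes. Endothelial markers, of which the rule capped Cldn5, Pecam1 and Cdh5, summed to 1261 CPM in mural barcodes of BP replicate 1, 1592 in BP replicate 2 (17 UMIs) and 245 to 584 in the other 5 libraries. In BP replicate 1 a single member held 134 of the 418 endothelial marker UMIs, and 917 CPM remained without it. Over the mural barcodes of all libraries Flt1 led these 12 markers, and 3 of the 12 reached 32 CPM. The part of fibroblast and endothelial genes in the matrix and chemokine values was not tested. The other BP library had 3 members, and its 0 UMIs of Ccl11, Nts, Postn and Col6a1 allow up to 345 CPM of each, below the lower bounds of BP replicate 1. These bounds cover counting error only, and with 1 barcode holding 7777 of the 10679 UMIs of BP replicate 2 the spread between cells and between BP libraries was not measured.

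**Figure D3:**
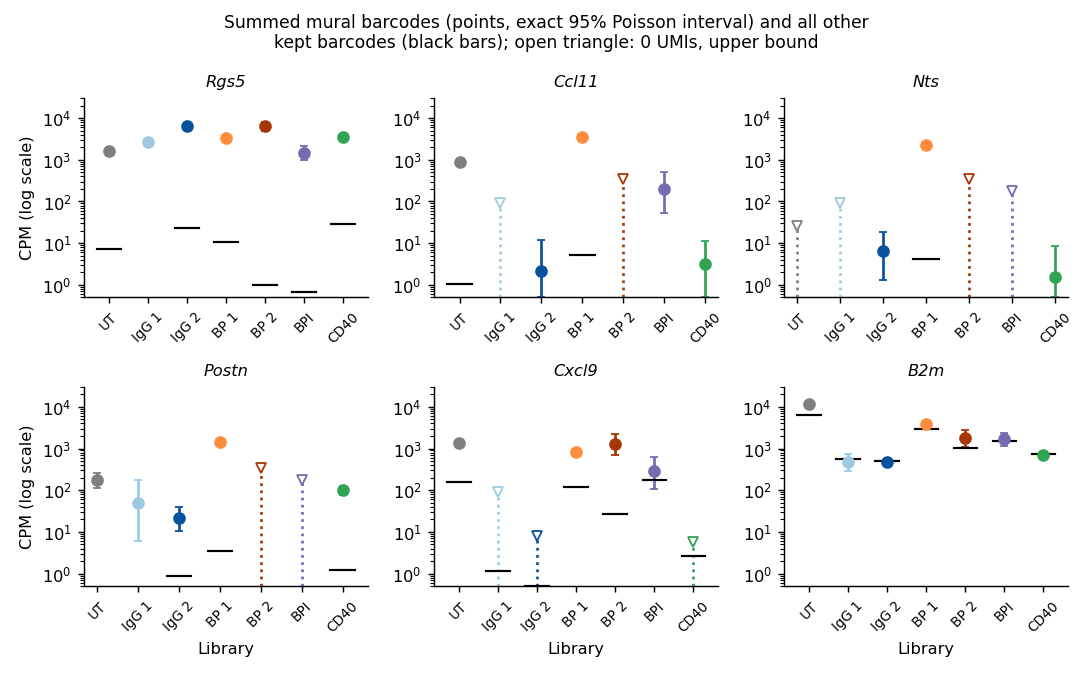
Levels of Rgs5, Ccl11, Nts, Postn, Cxcl9 and B2m in CPM on a log scale, summed over the mural barcodes of each library (points, exact 95% Poisson intervals) and over all other kept barcodes (black bars). Ccl11, Nts and Postn are highest in BP replicate 1, while B2m in mural barcodes follows the level of the other barcodes from library to library.

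Interferon-induced chemokines separated the libraries in another way. Cxcl9, a ligand of the chemokine receptor Cxcr3, was at 1343 CPM in UT (6 of 9 members), 1311 in BP replicate 2 (14 UMIs in 1 member), 808 in BP replicate 1 (11 of 17 members) and 294 in BPI, and had no UMI in either IgG library or CD40. For IgG replicate 2 and CD40, 0 UMIs allow up to 7.94 and 5.69 CPM. The other kept barcodes of the same libraries had 160 CPM of Cxcl9 in UT, 26.8 in BP replicate 2, 123 in BP replicate 1, 172 in BPI, 1.14 in IgG replicate 1, 0.511 in IgG replicate 2 and 2.60 in CD40. Cxcl10, a second Cxcr3 ligand, was at 1589 CPM in UT, 1568 in BPI (31 of 32 UMIs from 1 member), 658 in BP replicate 1, 93.6 in BP replicate 2 and 4.63 in CD40, with none in either IgG library. Ccl2, which attracts monocytes, was at 2088 CPM in UT, where 1 member held 206 of 297 UMIs, 686 in BPI, 603 in BP replicate 1, 187 in BP replicate 2, 49.4 in IgG replicate 1, 32.4 in CD40 and 2.15 in IgG replicate 2. In IgG replicate 2 the mural level of Ccl2 was below that of other barcodes (27.1 CPM), and in CD40 too (47.3 CPM). The 13 chemokine and adhesion genes summed to 7010 CPM in UT, where 1 member held 511 of the 997 UMIs, and to 3808 CPM without it. In BPI 1 member held 60 of the 62 UMIs of this list, which summed to 3038 CPM with it and 125 without. The BPI levels of Cxcl9 and Ccl2 thus rest largely on that member. In BP replicate 2, 1 member held 16 of the 17 UMIs of the list.

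The wider interferon response also differed between libraries, in mural and in other barcodes. Its 19 genes summed to 45041 CPM in mural barcodes of UT, 21541 in BP replicate 1, 15545 in BP replicate 2, 14702 in BPI, 6861 in IgG replicate 1, 5714 in IgG replicate 2 and 3793 in CD40. The other barcodes of these libraries had 28840.2, 16979, 6754, 12002, 4511, 2776 and 3278 CPM, in the same order. B2m, the invariant chain of MHC class I, was at 11545 CPM in UT, 3864 in BP replicate 1, 1779 in BP replicate 2, 1666 in BPI, 705 in CD40, 482 in IgG replicate 2 and 469 in IgG replicate 1. Single members held much of the sums of several libraries. Without the member with most UMIs of the list, BPI was at 9407 CPM, IgG replicate 1 at 3993, IgG replicate 2 at 3451 and BP replicate 2 at 2068, beside 3478 in CD40, so the order of these libraries rested on single barcodes. UT and BP replicate 1 were then at 41549 and 21932 CPM. UT stood highest although untreated, and its barcode list differs, so library and treatment cannot be told apart.

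**Figure D4:**
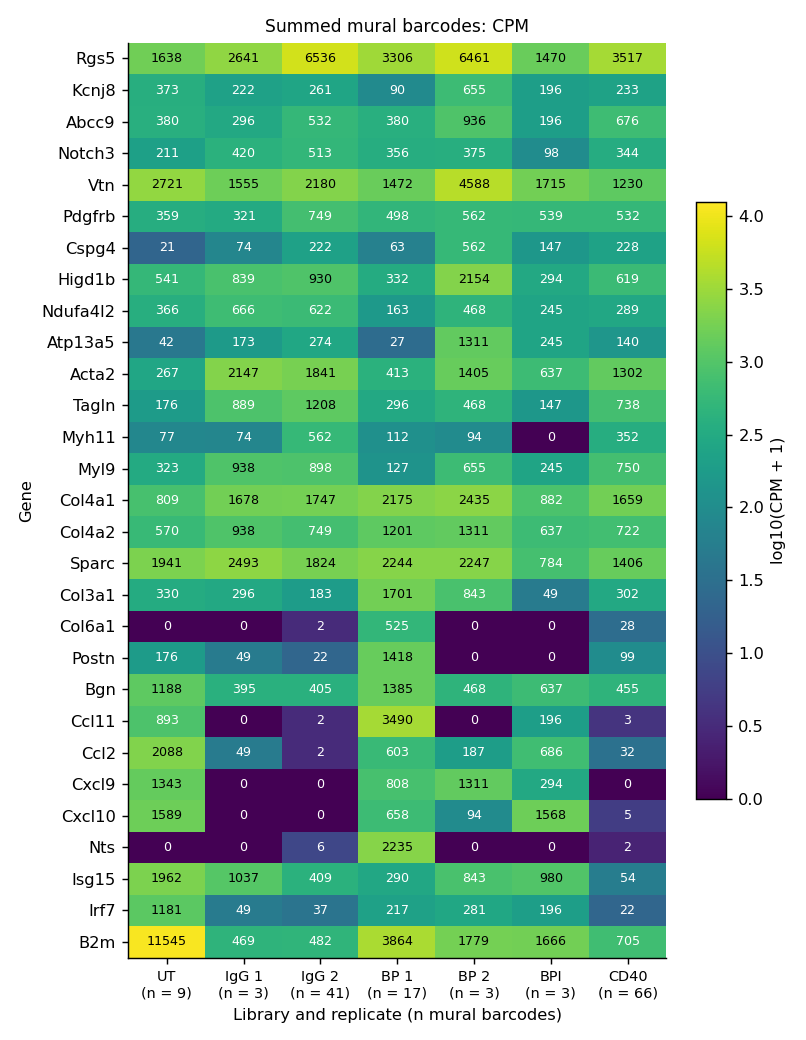
Levels of 29 genes in the summed mural barcodes of each library, in CPM, with colour on a log10 scale and the number of mural barcodes under each library. Rule genes (top 5 rows) are present in all 7 libraries, while Col6a1, Ccl11 and Nts are at or near 0 in most. Cxcl9 is at 0 in both IgG libraries and in CD40.

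A comparison over all genes was possible only for CD40 and IgG replicate 2, the libraries with 20 or more mural barcodes, which together held 67.1% of all mural UMIs. With 1 library on each side there is no measure of the spread between libraries, and no test was made. Of 5755 genes with a mean of at least 5 on the log2 CPM scale, 316 differed by 2-fold or more (5.49%), 167 higher (2.90%) and 149 lower (2.59%) in CD40. The median log2 difference over these genes was -0.02. With the stricter rule of 8 UMIs from 4 genes, 248 of the 316 genes were compared again, 156 remained past 2-fold on the same side and 2 lay past it on the other.

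Of 23 pericyte genes outside the rule, 6 were lower past 2-fold in CD40 and 0 higher, beside 2.59% lower over all genes, with a median of -0.64. Under the stricter rule 2 of the 23 were lower, beside 4.71% of all genes, and the median was -0.18. The rule genes, which chose the members, had a median of -0.62, with 0 of 5 past 2-fold, beside 5.49% of all genes either way. The 6 were Tbx18, a transcription factor of mural cells, at 18.5 CPM in CD40 and 53.8 in IgG replicate 2, Slc19a1, a folate carrier, at 40.1 and 103, Cox4i2, a subunit of cytochrome c oxidase, at 133 and 317, Pth1r, the parathyroid hormone receptor, at 44.8 and 103, Ndufa4l2 at 289 and 622, and Atp13a5 at 140.4 and 274. Higd1b, which did not pass, was at 619 and 930.4 CPM. More CD40 members met neither marker set. Without the 13 members of the 2 libraries that met neither, 4 of the 23 genes were lower, beside 2.38% of all genes, with a median of -0.43, and the rule genes had a median of -0.47. The CD40 members were also shallower, and the part of depth in the pericyte values was not tested.

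The count of contractile genes depended on the rule. Of 17 smooth muscle genes 0 passed 2-fold, beside 5.49% of all genes either way, with a median of -0.47. Under the stricter rule 7 of the 17 were lower in CD40, beside 4.71% of all genes, with a median of -0.38. The counts behind some of the 7 were small. Under that rule Myh11 had 13 UMIs in CD40 and 53 in IgG replicate 2, Lmod1, an actin-nucleating protein of smooth muscle, had 6 and 22, Mustn1 had 10 and 24, Sncg had 2 and 26 and Nrip2 had 1 and 8. Pln, which encodes phospholamban, had 0 and 2, too few for a fold. Tagln had 90 and 251, of which 1 IgG replicate 2 member held 134 and 1 CD40 member 47. Without the IgG replicate 2 member with most smooth muscle UMIs, 6 of the 17 were lower, Pln among them, and 0 higher, beside 4.41% and 4.21% of all genes, with a median of -0.34, and Tagln no longer passed (-0.50). Acta2, at 1302 CPM in CD40 and 1841 in IgG replicate 2, passed under neither rule.

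Some matrix genes were higher in CD40. Of 12 fibrillar matrix and matricellular genes 2 were higher past 2-fold and 0 lower, beside 2.90% higher over all genes, with a median of 0.50. Under the stricter rule 6 of the 12 were higher, beside 3.84% of all genes, with a median of 1.01. Without the members that met neither marker set 4 were higher, beside 2.99% of all genes, with a median of 0.70. Postn was at 98.8 CPM (76.1 to 126) in CD40 and 21.5 (10.3 to 39.6) in IgG replicate 2, a log2 difference of 2.09, and was seen in 17 of 66 and 9 of 41 members. Col6a3, a chain of type VI collagen, was at 105 CPM in CD40 and 34.5 in IgG replicate 2. Of the 64 Postn UMIs in CD40, 21 came from 1 member. Endothelial markers moved the same way: the 12 summed to 539 CPM in mural barcodes of CD40 and 340 in IgG replicate 2. Over the mural barcodes of all libraries they summed to 631 CPM, led by Flt1, and 3 of the 12 reached 32 CPM. Among the 12, Cldn5, Pecam1 and Cdh5 were held to at most 1 UMI together by the rule. Of the 3 markers compared 1 was higher past 2-fold, beside 2.90% of all genes, and 2 under the stricter rule, beside 3.84%. The medians were 0.94 and 1.30. Without the IgG replicate 2 member with most interferon response UMIs 0 of the 3 were higher, beside 4.15% of all genes, with a median of 0.85. The part of endothelial transcripts in the matrix values was not tested. Of 13 basement membrane genes 0 passed 2-fold, beside 5.49% of all genes either way, with a median of -0.02. Under the stricter rule 2 of the 13 were higher, beside 3.84% of all genes, with a median of 0.24. Without the members that met neither marker set 2 were higher, beside 2.99%, with a median of 0.06. Of 10 PDGF, angiopoietin and VEGF genes 1 was higher and 0 lower, beside 2.90% and 2.59%, with a median of 0.18. Under the stricter rule 2 were higher and 2 lower, beside 3.84% and 4.71%. Among these genes Nrp2, a co-receptor for VEGF-C and semaphorins, was at 61.7 CPM in CD40 and 19.4 in IgG replicate 2.

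The interferon response was lower in CD40 by count, and the count depended on the members kept. Of 15 genes 8 were lower past 2-fold and 0 higher, beside 2.59% and 2.90% of all genes, with a median of -1.13. A single IgG replicate 2 member of 28509 UMIs held 1149 of the 2653 UMIs of the list, and it also held 62 of the 88 astrocyte marker UMIs of that library and 13 rule UMIs. Without this member alone, 2 of the 15 genes were lower and 3 higher, beside 2.54% and 4.15% of all genes, and the median was -0.08. The list then summed to 3451 CPM in IgG replicate 2, beside 3793 CPM in CD40. Without the 13 members that met neither marker set, this one among them, 2 of the 15 were lower and 1 higher, beside 2.38% and 2.99% of all genes, and the median was -0.38. Under the stricter rule, which also leaves this member out, 5 of the 15 were lower and 2 higher, beside 4.71% and 3.84% of all genes, and the median was -0.66. Isg15, an interferon-induced ubiquitin-like protein, remained lower: it was at 54.0 CPM (37.6 to 75.1) in CD40 and 409 (353 to 472) in IgG replicate 2, a log2 difference of -2.95, which was -2.19 without the interferon-rich member and -3.52 without the 13. Of its 190 UMIs in IgG replicate 2, 85 came from the interferon-rich member, and of its 35 in CD40, 24 came from 1 member. Isg15 was at 1037 CPM in IgG replicate 1. The other gene that stayed lower in both settings was Ifit1, whose 7 UMIs in CD40 came from 1 of the 13. The genes that were higher without the interferon-rich member were B2m (1.37), Iigp1 (1.52) and Gbp7 (1.19), and B2m was higher without the 13 (1.32).

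**Figure D5:**
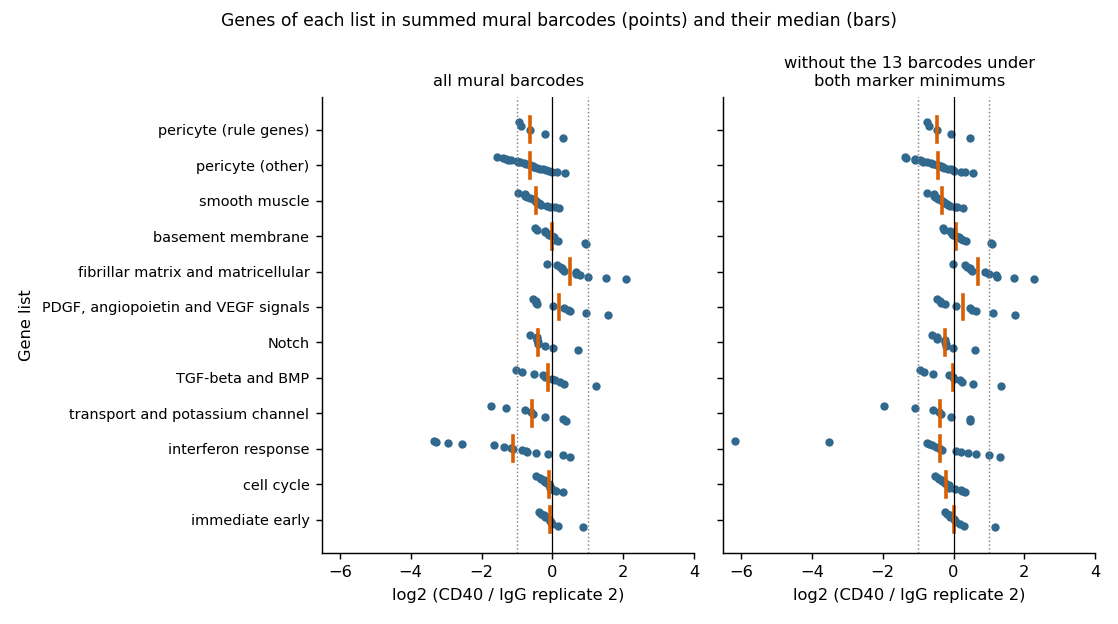
Log2 ratio of CD40 to IgG replicate 2 in summed mural barcodes for the genes of 12 lists (points) with the list median (bars) and dotted lines at 2-fold, for all members and without the 13 members that met neither marker set. The interferon response median moves from -1.13 to -0.38, while the fibrillar matrix median stays above 0. Ifit1 lies far left on the right panel, where CD40 has no UMI of it.

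By size alone, among genes with separate Poisson intervals and a UMI in at least 25% of the members of the higher library, the 10 largest differences towards CD40 were Enox1 (2.16 on the log2 scale), Postn, Dclk2 (1.97), Tmod2 (1.92), Mitf (1.89), Mdga2 (1.81), Nav3 (1.81), Ptpn13 (1.79), Car2 (1.77) and Robo1 (1.76). Mitf, a transcription factor, was at 94.1 CPM in CD40 and 23.7 in IgG replicate 2, and Car2, a carbonic anhydrase, at 117 and 32.3 CPM. Robo1, a receptor for Slit proteins, was at 63.3 and 17.2 CPM. Mdga2 had 70 of its 190 CD40 UMIs in 1 member. Free RNA made up an estimated 4.13% of Mdga2 UMIs in CD40 and 8.96% in IgG replicate 2. For Nav3 these shares were 3.78% and 7.56%. Over all mural UMIs they were 3.58% in CD40 and 2.16% in IgG replicate 2. Mdga2 and Nav3 thus stood lower in mural barcodes than in free RNA in both libraries. The other genes of the 10 stood above free RNA in CD40. Tmod2, which caps actin filaments, had a log2 difference of 0.64 under the stricter rule. Nav3 was at 1.13 under that rule and at 2.60 without the interferon-rich member of IgG replicate 2. In IgG replicate 2, 1 member held 8 of its 17 UMIs.

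Towards IgG replicate 2 the 10 largest were Isg15, H2-T23 (-2.26), Prr5l (-1.90), Slc6a20a (-1.74), Cav1 (-1.74), Psmb8 (-1.66), Lnx2 (-1.63), Ackr3 (-1.62), Hist1h1b (-1.58) and Tbx18 (-1.56). Cav1, which encodes the coat protein of caveolae, was at 26.2 CPM in CD40 and 86.1 in IgG replicate 2. Ackr3, a scavenging receptor for Cxcl12, was at 43.2 and 129 CPM, and Slc6a20a, a transporter of proline, was at 35.5 and 116 CPM. Psmb8, a subunit of the immunoproteasome, had 101 of its 147 IgG replicate 2 UMIs in the interferon-rich member described above, and its difference was -0.08 without that member. H2-T23, a non-classical MHC class I gene, moved to -1.13 without it and to -0.99 without the members that met neither marker set. Hist1h1b, a histone gene, moved to -1.06 without the members marked by doublet scoring and to -2.91 under the stricter rule. It was seen in 36.4% of CD40 and 26.8% of IgG replicate 2 members. Tbx18 was at -0.93 under the stricter rule, no longer past 2-fold.

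Transcripts of other cell types were present in some members. In CD40 the 12 leukocyte markers summed to 438 CPM, 140 of 284 UMIs in 1 barcode, against 36.6 CPM in IgG replicate 2, and C1qa was at 144 CPM against 4.31. Astrocyte markers outnumbered rule UMIs in 6 members (3 in CD40, 2 in BP replicate 1, 1 in IgG replicate 2). Leukocyte markers did so in 4, tumour-line markers in 8 and cell cycle genes in 31, 21 of these in CD40. The 10 tumour-line markers summed to 653 CPM in CD40 and 597 in IgG replicate 2, below the other barcodes of the same libraries (900.4 and 1002 CPM). The 15 cell cycle genes summed to 2969 and 3164 CPM. Doublet scoring marked 5 members, 3 in IgG replicate 2 and 2 in CD40, and erythrocyte markers were at 0 in 5 of 7 libraries. The part of these transcripts in the differences was not tested.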

How the data were processed

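The authors deposited raw UMI count matrices of 32285 genes over all listed barcodes, on mm10. The file headers name Cell Ranger 4, and the submitters' processing notes name Cell Ranger 7.0.1. Barcodes were kept and mural members chosen by the rule in the report. The members and the 21 gene lists were chosen with earlier results of these data known. Counts were summed per library over mural barcodes. The planned edgeR quasi-likelihood tests of BP, BPI, CD40 and UT against IgG were not made, since only CD40 and IgG replicate 2 had 20 or more members, which leaves no measure of spread. Their log2 ratios used TMM scaling (edgeR 4.0.16, R 4.3.3) and 0.5 pseudo-UMIs. The ratios were tried on simulated Poisson counts, which have no spread between barcodes and so cannot show how single members move them. Mgp was added by hand, outside any rule. Besides Mgp, list members and the 15 leading genes, genes were named by size, up to 10 each way. These had separate intervals, free RNA under 10% in both libraries and a UMI in at least 25% of the members of the higher library. That rule replaced one based on p-values after the data were seen. Free RNA was estimated from barcodes of 1 to 100 UMIs and leukocyte genes, leaving out 3 members with 20 or more leukocyte UMIs. Doublets were scored with Scrublet (scanpy 1.11.5), 0.8% per 1000 barcodes, and left in. Positions came from GENCODE on GRCm38, where 298 of 298 named genes were found, and 2 listed genes (Ctgf and Cyr61) are not in the files under those names. Another listed gene is not reported here and was left out of its list. Replicate numbers of IgG and BP libraries name pools, and the correlation of same-numbered deviations was -0.67 over 2 pairs.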

Additional observations from a re-analysis of the deposited data

Results flagged for a closer look

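Levels are given for mural barcodes of UT and BP replicate 1, which entered no comparison over all genes, where the lower bound was over 10 times the upper bound of IgG replicate 2 and above that of IgG replicate 1. The gene also had a UMI in at least 50% of the members and under 10% estimated free RNA. This way of picking was set after the values were seen. In BP replicate 1 these were the chemokines Ccl11 at 3490.1 CPM, Cxcl9 at 808 CPM, Cxcl10 at 658 CPM, Ccl2 at 603 CPM and Ccl7 at 296 CPM. They were also neurotensin (Nts) at 2235 CPM, periostin (Postn) at 1418 CPM, the steroid hydroxylase Cyp7b1 at 1315 CPM, and the collagen chains Col6a1 at 525 CPM and Col6a2 at 462 CPM. In UT they were Ccl2 at 2088 CPM, Cxcl9 at 1343 CPM, Cxcl10 at 1589 CPM and the interferon regulator Irf7 at 1181 CPM. A single UT member held 511 of the 997 UMIs of the chemokine and adhesion list. UT also had B2m at 11545 CPM, H2-D1 at 9513 CPM and H2-K1 at 4219 CPM, genes of MHC class I. The other kept barcodes of UT held 6436 CPM of B2m, 5486 CPM of H2-D1, 2565 CPM of H2-K1 and 774 CPM of Irf7.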

How the results depend on the processing

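The difference in mural share between BP and IgG stayed negative in the 7 settings of the rule, filters, thinning and doublets that were tried, and turned to 0.0577 percentage points without IgG replicate 2; leaving out each library in turn gave -0.407 to 0.0577. The log2 ratio of mural to endothelial barcodes stayed positive, at 0.348 to 1.63 with a library left out and 0.379 to 1.37 in the 7 settings. With the replicate block, the differences were -0.174 and 0.99 with exact p = 1 and 0.5, as they were with the crossed pairing, added after seeing the data. With 2 pairs this test cannot give a p below 0.5, so neither fit could call a difference. For CD40 against IgG replicate 2, 316 genes passed 2-fold, and 5297 did without the filter on low counts. The other 9 settings gave 287 to 449, of which 10 or more barcodes per library leaves both libraries unchanged and repeats the 316. Among them, leaving out members that met neither marker set, leaving out the interferon-rich member of IgG replicate 2, the stricter rule without the IgG replicate 2 member with most smooth muscle UMIs and library totals for scaling were added after seeing the data. Of 140 values of the 20 genes named by size under other settings, 12 moved by more than their interval and 0 changed sign. These genes were picked as the largest differences in the same data and the settings reuse the same members, so the constant sign is no support. The tests planned for each gene and their alternatives, DESeq2, left-out libraries and the replicate block among them, were not run because no residual degree of freedom was left. With 10 or more members BP replicate 1 joins, still with 1 library in each group. Libraries with 3 members limit what can be seen: 0 UMIs allow up to 345 CPM in BP replicate 2.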
